A study of Mus musculus with 6 samples.

Results

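The thrombospondin genes *Thbs1*, *Thbs2*, *Thbs3*, *Thbs4* and *Comp* were followed in mouse hearts after transverse aortic constriction (TAC), surgery that narrows the aortic arch so that the left ventricle pumps against raised pressure. They were chosen by symbol, and all 5 were found among the 23995 genes of the deposited expression table. RNA sequencing covered 6 libraries, 3 labelled LTBP4-CKO (cardiomyocyte-specific, inducible knockout of *Ltbp4*, the gene of latent TGF-beta binding protein 4) and 3 labelled WT. All mice had TAC at an age of 10 to 12 weeks, and no unoperated heart was analysed here, so every difference below is between genotypes after TAC. The names of the WT libraries carry flox, and whether these mice carried floxed alleles or a Cre transgene is not stated in the labels. The promoter that drives Cre, the agent that induces it, the time from surgery to harvest and the sex of the animals are not stated there either.

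Thrombospondins are secreted, calcium-binding glycoproteins of the extracellular matrix that assemble into multimers and link collagens and other matrix proteins to cell-surface receptors. Thrombospondin-1 and -2 (subgroup A) form trimers and carry thrombospondin type 1 repeats, through which they bind CD36 and restrain vessel growth. Thrombospondin-3, thrombospondin-4 and COMP, the cartilage oligomeric matrix protein (subgroup B), form pentamers without these repeats. In the heart, thrombospondins are known from pressure overload and fibrosis, whereas COMP is best known from cartilage, tendon and ligament.

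Expression is given in FPKM, fragments per kilobase of transcript scaled to the mapped library size, so levels of different genes can be compared per length. The recovered depth was about 13900000, 5900000 and 6800000 fragments in LTBP4-CKO libraries 1 to 3 and about 5700000, 3700000 and 5900000 in WT libraries 1 to 3. By this depth and the longest annotated transcript, each value of a thrombospondin gene rested on about 91 to 8349 fragments. LTBP4-CKO libraries 2 and 3 differed by little more than counting noise, and so did WT libraries 1 and 3 (variance of the differences 1.23 to 1.78 times that of counting). In the other 13 pairs this ratio had a highest value, over bins of depth, of 74.5 to 277. Each close pair was averaged and counted as 1 sample, which left 2 LTBP4-CKO and 2 WT samples. No label says that samples came from separate animals, so p-values measure only the spread between these samples. WT libraries 1 and 3 also carried atrial transcripts (*Myl4*, the atrial light chain gene, 2629 and 2560 FPKM, against 8.11 to 16.0 in the other 4 libraries). Estimates of the thrombospondin genes are therefore also given without these libraries. Group means and results over gene lists include them and were not recomputed. *Ltbp4* itself was at 139, 199 and 195 FPKM in LTBP4-CKO hearts and at 368, 248 and 357 FPKM in WT hearts, a difference that did not pass the test. In whole-heart RNA, fewer cells of a type and less RNA per cell cannot be told apart.

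The genes lie on 5 chromosomes (mm10), and all are annotated as protein coding. *Thbs1* (chr2:118111922-118127133) is on the plus strand with up to 22 exons per transcript. *Thbs2* (chr17:14665500-14694262) is on the minus strand, also with up to 22. *Thbs3* (chr3:89215187-89226837) is on the plus strand with up to 23. *Thbs4* (chr13:92751586-92794818) is on the minus strand with up to 22, and *Comp* (chr8:70373548-70382066) is on the plus strand with up to 19. Promoter sequence was at hand for *Thbs2*, *Thbs3* and *Thbs4*, 250 bases before to 50 after the start of each gene (RefSeq, GRCm38.p6). These 3 promoters are shown because no promoter sequence was at hand for *Thbs1* and *Comp*. The 3 genes had their lowest values in the same libraries (LTBP4-CKO libraries 2 and 3), and a link of this to the sequences was not tested. Capitals mark matches on either strand to TATAAA (the TATA box), GGGCGG (the GC box bound by SP1) and CAGAC (a SMAD box).
Thbs2, chr17:14694213-14694512, minus strand: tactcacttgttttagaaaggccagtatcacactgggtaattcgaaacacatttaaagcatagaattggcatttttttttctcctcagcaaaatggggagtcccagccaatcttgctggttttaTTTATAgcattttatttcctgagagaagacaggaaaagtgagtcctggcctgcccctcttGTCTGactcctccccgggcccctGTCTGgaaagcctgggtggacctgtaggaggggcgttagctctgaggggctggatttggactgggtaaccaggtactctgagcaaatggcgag
Thbs3, chr3:89214930-89215229, plus strand: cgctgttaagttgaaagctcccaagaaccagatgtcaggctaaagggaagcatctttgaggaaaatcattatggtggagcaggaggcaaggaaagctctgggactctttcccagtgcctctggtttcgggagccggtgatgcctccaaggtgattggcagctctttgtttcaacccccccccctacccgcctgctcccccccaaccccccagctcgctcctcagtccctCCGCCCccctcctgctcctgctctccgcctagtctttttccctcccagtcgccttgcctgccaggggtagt
Thbs4, chr13:92794769-92795068, minus strand: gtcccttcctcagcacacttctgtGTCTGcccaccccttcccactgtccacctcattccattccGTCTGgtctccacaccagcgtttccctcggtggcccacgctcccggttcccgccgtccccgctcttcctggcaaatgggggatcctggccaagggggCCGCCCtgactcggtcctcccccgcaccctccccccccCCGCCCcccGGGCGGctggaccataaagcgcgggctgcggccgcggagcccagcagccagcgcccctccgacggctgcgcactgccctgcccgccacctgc
The *Thbs2* window held 1 match to TATAAA and 2 to CAGAC, and it had 48.3% G and C. The *Thbs3* window held 1 match to GGGCGG and had 59.0% G and C. The *Thbs4* window held 3 matches to GGGCGG and 2 to CAGAC, and it had 72.0% G and C, beside a median of 52.7% over all promoters. Of the 32851 promoters in the set, 13.6% held TATAAA, 35.7% GGGCGG and 49.6% CAGAC, and no marked motif was in all 3 windows. Neither TGANTCA (the AP-1 site, 7.81% of all promoters) nor TGACGTG (an ATF6-type site, 2.01%) was found in these windows. No match shown here was tested as a binding site.

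*Comp* had the highest mean level of the 5 genes in both genotypes and the largest difference between them. It stood at 22.4, 23.7 and 24.0 FPKM in LTBP4-CKO libraries 1 to 3, against 672, 132 and 673 FPKM in WT libraries 1 to 3. The knockout libraries lay within a narrow band and below every WT library, while WT library 2 was far below the other two. Over samples the mean was 23.1 ± 1.03 FPKM in LTBP4-CKO and 402 ± 382 FPKM in WT (SD, n = 2 each), so the WT mean was 17.4 times the knockout mean. The log2 fold change of FPKM + 1 was −3.63 (SE 0.75, 95% interval −5.44 to −1.82), which ranked 10 from the lowest among 12485 genes tested. Across all genes it missed the threshold (adjusted p = 0.999 by limma with Benjamini-Hochberg adjustment). Of all genes tested, 1 was called higher (0.00801%, the estrogen receptor alpha gene *Esr1*) and 0 lower. *Esr1* stood at 1425, 781 and 758 FPKM in LTBP4-CKO libraries 1 to 3 and at 0, 0.202 and 0 FPKM in WT libraries 1 to 3. Whether these reads came from the endogenous gene or from a transgene was not tested. At an unadjusted p under 0.05 by limma, 286 genes were lower (2.29%), among them *Comp* as the only thrombospondin gene. In 11.5% of all genes tested, every knockout library was below every WT library, and among the 5 thrombospondin genes this held for *Comp* alone. Without WT library 2 the estimate was −4.80 and passed (adjusted p = 0.0361 by limma with Benjamini-Hochberg adjustment, where the alternatives spanned 0.0361 to 1). That fit left the libraries with atrial transcripts as the only WT sample. Without WT libraries 1 and 3, which carried atrial transcripts, it was −2.46 and did not pass. The record numbers of the libraries fall into 2 runs, and the *Comp* difference was −3.64 in the earlier run (2 libraries per genotype) and −4.75 in the later one (1 per genotype). The later run holds LTBP4-CKO library 3 and WT library 3, the close partners of LTBP4-CKO library 2 and WT library 1 in the earlier run, so its value is not a second observation.

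*Thbs4*, which encodes a thrombospondin that in mice protects the heart through the ER stress factor ATF6, had the next largest difference. It stood at 27.9, 8.25 and 6.86 FPKM in LTBP4-CKO libraries 1 to 3, against 27.2, 82.6 and 28.4 FPKM in WT libraries 1 to 3. LTBP4-CKO library 1 was level with WT libraries 1 and 3, so the groups overlapped, and WT library 2 was the highest of all. The mean was 17.7 ± 14.4 FPKM in LTBP4-CKO and 55.2 ± 38.7 FPKM in WT (SD, n = 2 each). Its log2 fold change was −1.64 (SE 0.73, 95% interval −3.39 to 0.11), which missed the threshold (adjusted p = 0.999 by limma). The estimate kept its sign with each sample left out, but its size varied. It was −0.87 without WT library 2 and −0.76 without LTBP4-CKO libraries 2 and 3, against −2.41 without WT libraries 1 and 3 and −2.52 without LTBP4-CKO library 1.

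*Thbs3*, whose product is known from mouse hearts for its effect on integrins at the cell membrane, differed less. It stood at 19.2, 11.0 and 14.1 FPKM in LTBP4-CKO libraries 1 to 3, against 36.2, 18.9 and 32.7 FPKM in WT libraries 1 to 3. LTBP4-CKO library 1 was just above WT library 2, and in every other pairing the knockout library was below. The mean was 15.9 ± 4.74 FPKM in LTBP4-CKO and 26.7 ± 11.0 FPKM in WT (SD, n = 2 each). Its log2 fold change came to −0.69 (SE 0.44, 95% interval −1.73 to 0.36), which missed the threshold (adjusted p = 0.999 by limma). It was −1.10 without WT library 2 and −0.27 without WT libraries 1 and 3.

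*Thbs1*, which encodes the activator of latent TGF-beta and inhibitor of angiogenesis, was high in WT libraries 1 and 3 and low in the other 4 libraries. It stood at 9.27, 11.9 and 10.4 FPKM in LTBP4-CKO libraries 1 to 3, against 40.2, 7.51 and 37.4 FPKM in WT libraries 1 to 3. WT library 2 was thus below every knockout library, and the groups overlapped. The mean was 10.2 ± 1.30 FPKM in LTBP4-CKO and 23.1 ± 22.1 FPKM in WT (SD, n = 2 each). On the log2 scale the fold change was −0.72 (SE 0.70, 95% interval −2.40 to 0.96), short of the threshold (adjusted p = 0.999 by limma). It changed sign to 0.39 without WT libraries 1 and 3, the libraries with atrial transcripts, and was −1.83 without WT library 2.

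*Thbs2*, whose product helps clear matrix metalloproteinase 2 and shape collagen fibrils, was the lowest of the 5 genes in mean level. It stood at 10.7, 2.99 and 2.42 FPKM in LTBP4-CKO libraries 1 to 3, against 9.35, 5.51 and 11.4 FPKM in WT libraries 1 to 3. LTBP4-CKO library 1 was among the high values and the other two knockout libraries were the lowest. The mean was 6.68 ± 5.63 FPKM in LTBP4-CKO and 7.93 ± 3.42 FPKM in WT (SD, n = 2 each). The fold change was −0.39 on the log2 scale (SE 0.61, 95% interval −1.86 to 1.08), short of the threshold (adjusted p = 0.999 by limma). It changed sign to 0.44 without LTBP4-CKO libraries 2 and 3 and to 0.014 without WT libraries 1 and 3, and was −1.21 without LTBP4-CKO library 1 and −0.79 without WT library 2. All 5 genes had negative estimates, where 45.8% of all genes tested did and the median of all was 0.04.

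**Figure D1:**
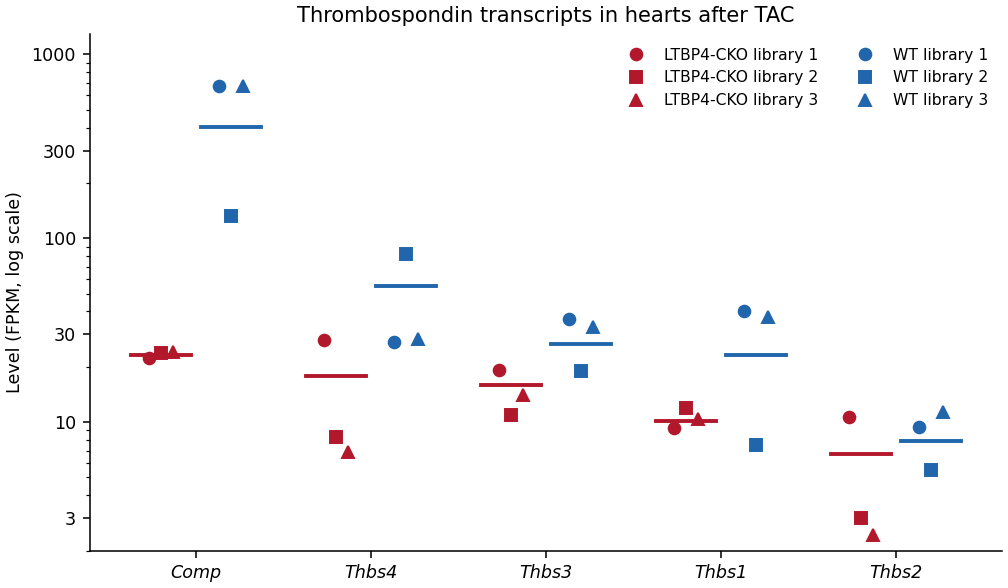
FPKM (log axis) of the 5 genes in each library, LTBP4-CKO in red and WT in blue; symbols mark library numbers and horizontal lines the mean of the 2 samples of a genotype. *Comp* is between 22.4 and 24.0 FPKM in the 3 knockout libraries and between 132 and 673 in the WT libraries, and the genotypes overlap for the other 4 genes.

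**Figure D2:**
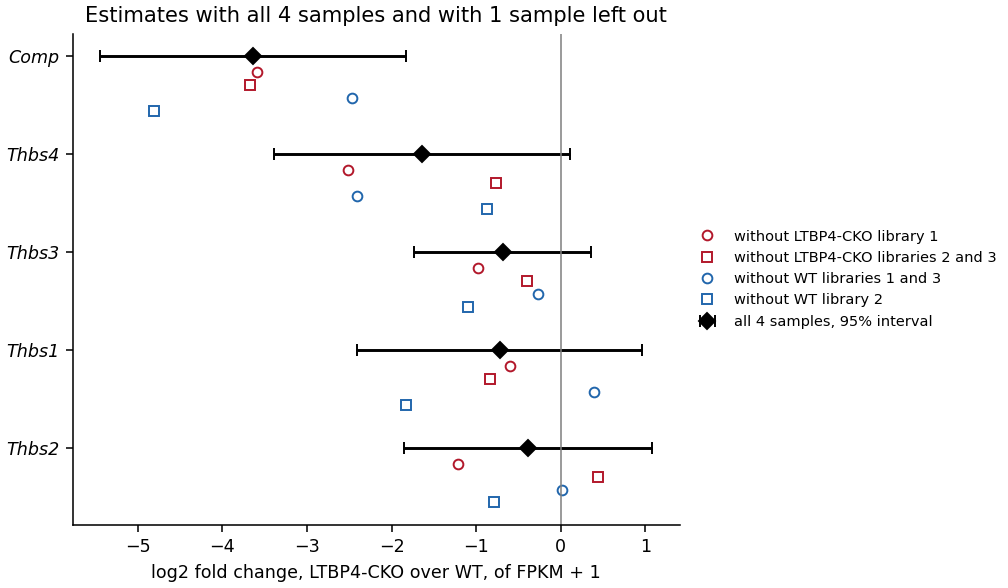
The log2 fold change of FPKM + 1, LTBP4-CKO over WT, for each gene from the limma fit of 4 samples (diamonds, with 95% intervals) and with 1 sample left out (open symbols). The *Comp* estimates lie between −4.80 and −2.46, whereas *Thbs1* (0.39) and *Thbs2* (0.44 and 0.014) cross 0.

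The order of mean levels was the same in both genotypes, namely *Comp*, *Thbs4*, *Thbs3*, *Thbs1* and *Thbs2* from high to low. In LTBP4-CKO hearts, the libraries of each gene overlapped with those of the next gene in this order. In WT hearts this was so for *Thbs4* and *Thbs3*, for *Thbs3* and *Thbs1* and for *Thbs1* and *Thbs2*, whereas the lowest *Comp* value (132 FPKM) was above the highest *Thbs4* value (82.6 FPKM).

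The make-up of the summed thrombospondin transcripts differed between genotypes in every library. *Comp* made up 25.0%, 41.0% and 41.6% of the summed FPKM of the 5 genes in LTBP4-CKO libraries 1 to 3, against 85.6%, 53.6% and 86.0% in WT libraries 1 to 3. The subgroup A genes *Thbs1* and *Thbs2* together made up 22.3%, 25.7% and 22.1% in LTBP4-CKO libraries, against 6.31%, 5.28% and 6.22% in WT libraries. In FPKM, *Thbs1* and *Thbs2* each overlapped between genotypes, and neither mean was higher in LTBP4-CKO. Their joint share, taken of a sum that includes *Comp*, varied little within a genotype and did not overlap between genotypes. *Thbs4* was the exception among the smaller shares, with 31.2% in LTBP4-CKO library 1 and 33.5% in WT library 2, against 14.3% and 11.9% in LTBP4-CKO libraries 2 and 3 and 3.47% and 3.63% in WT libraries 1 and 3. The summed FPKM of the 5 genes was 89.5, 57.8 and 57.7 in LTBP4-CKO libraries and 785, 247 and 783 in WT libraries. With *Comp* left out it was 67.1, 34.1 and 33.7 in LTBP4-CKO libraries and 113, 115 and 110 in WT libraries. The sum of the other 4 genes was thus nearly level over the WT libraries although *Thbs4* led it in library 2 and *Thbs1* and *Thbs3* led it in libraries 1 and 3. These sums and shares are descriptions, since the genes were chosen with results of these data known.

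**Figure D3:**
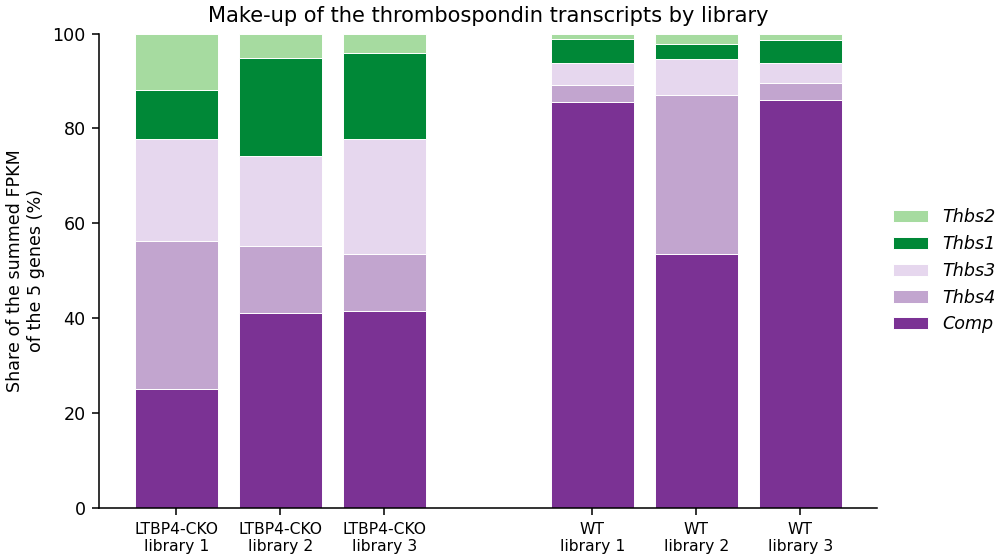
Share of each gene in the summed FPKM of the 5 genes (vertical axis, %), with 1 bar per library, LTBP4-CKO on the left and WT on the right; green marks subgroup A and purple subgroup B. *Comp* holds 25.0% to 41.6% in the knockout libraries and 53.6% to 86.0% in the WT libraries.

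Ratios between the genes within a library were compared for all 10 pairs. *Comp* over *Thbs1*, as a log2 ratio of FPKM + 1, was 1.19, 0.94 and 1.14 in LTBP4-CKO libraries 1 to 3 and 4.03, 3.97 and 4.14 in WT libraries 1 to 3. WT library 2 therefore matched the other WT libraries in this ratio, although both genes were several-fold below those libraries there. The mean ratio was 1.11 ± 0.11 in LTBP4-CKO and 4.03 ± 0.08 in WT (SD, n = 2 samples each), a difference of −2.91. *Comp* over *Thbs3* differed by −2.95 and *Comp* over *Thbs2* by −3.25, also without overlap, with wider spread in both genotypes. *Comp* over *Thbs4* overlapped, with 0.67 in WT library 2 between the values of the knockout libraries (−0.31, 1.42 and 1.67). In exact two-sided permutation tests over the 6 libraries, p was 0.1 for the 3 pairs without overlap, the smallest that 3 against 3 allows (Benjamini-Hochberg adjusted p = 0.333 over the 10 pairs). This test takes the close pairs (LTBP4-CKO libraries 2 and 3, WT libraries 1 and 3) as separate libraries, and over the 4 samples the smallest p that an exact test allows is 0.333 before adjustment. *Thbs4* over *Thbs2* was 1.31, 1.21 and 1.20 in LTBP4-CKO libraries and 1.45, 3.68 and 1.25 in WT libraries. In this ratio 5 libraries lay close together, and WT library 2 alone stood apart. The 6 pairs without *Comp* all overlapped between genotypes, with differences from −1.25 to 0.04.

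**Figure D4:**
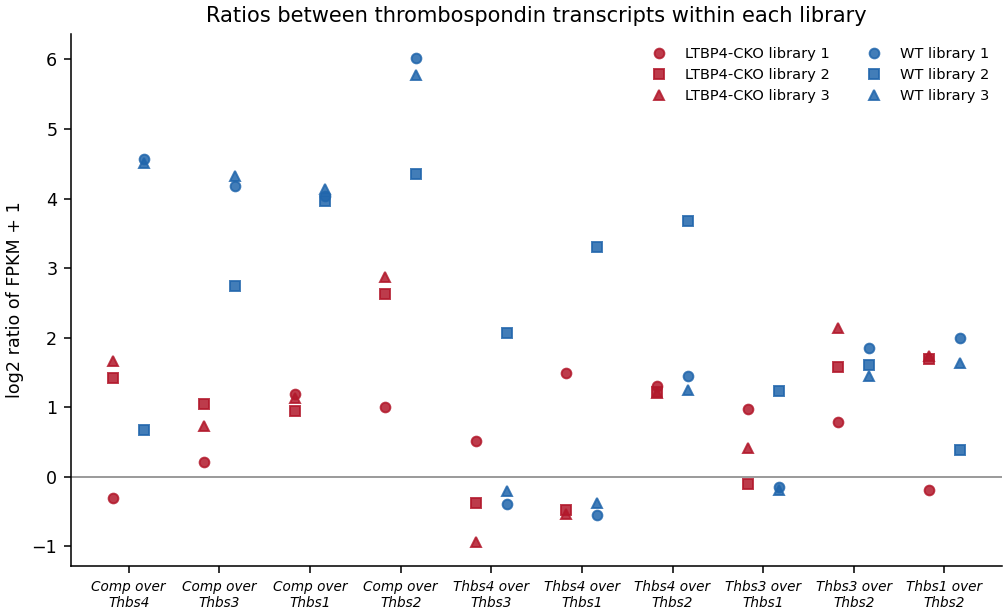
The log2 ratio of FPKM + 1 for each of the 10 pairs of genes, with 1 symbol per library, LTBP4-CKO in red on the left and WT in blue on the right. *Comp* over *Thbs1* lies between 0.94 and 1.19 in the knockout libraries and between 3.97 and 4.14 in the WT libraries, and *Thbs4* over *Thbs2* is high in WT library 2 (3.68) only.

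Expressed neighbours of the thrombospondin genes overlapped between genotypes. *Thbs3* lies head to head with *Mtx1*, the gene of the mitochondrial import protein metaxin 1, on the opposite strand with 851 bases between them. *Mtx1* stood at 25.5, 26.2 and 29.8 FPKM in LTBP4-CKO libraries and 20.4, 30.5 and 16.2 FPKM in WT libraries, with an estimate of 0.17 (SE 0.39) in the direction opposite to that of *Thbs3*. *Thbs4* is likewise head to head with the related gene *Mtx3*, 49968 bases away, which had an estimate of 0.28 (SE 0.44). On the other side of *Thbs4*, 39639 bases away, *Serinc5* had an estimate of 0.48 (SE 0.44). *Comp* ends 291 bases from the end of *Crtc1*, the gene of a CREB coactivator, on the opposite strand. *Crtc1* stood at 7.33, 7.70 and 7.27 FPKM in LTBP4-CKO libraries and at 7.49, 11.1 and 8.75 FPKM in WT libraries, below *Comp* in each library. The nearest gene expressed beside *Thbs2*, *Smoc2*, which encodes another matricellular protein, had an estimate of 0.30 (SE 0.59). None of these neighbours passed (adjusted p = 0.999 by limma), and their differences from the thrombospondin genes were not tested.

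For each gene, the 3 genes with the most similar course over the 4 samples were sought among 11756 tested genes, by the root mean square (RMS) difference of centred log2 values. *Comp* was nearest to *Rbp4*, the retinol carrier gene (RMS difference 0.32), *Cyp2e1*, a cytochrome P450 gene (0.47), and *Car3*, a carbonic anhydrase gene (0.48). *Rbp4* stood at 1.50, 1.03 and 2.05 FPKM in LTBP4-CKO libraries and 42.7, 8.65 and 40.1 FPKM in WT libraries. *Thbs2* was nearest to the mesenchymal transcription factor gene *Prrx1* (0.03), to *Abca8a* (0.07) and to *Fmo5* (0.09). *Prrx1* stood at 12.6, 3.36 and 3.08 FPKM in LTBP4-CKO libraries and 11.4, 6.22 and 11.9 FPKM in WT libraries, close to *Thbs2* in each. *Thbs3* was nearest to *Stmn2* (0.04), *Mmp9* (0.04) and *Cdon* (0.04), and *Thbs1* to *Bst1* (0.14), *Id2* (0.16) and *Cend1* (0.16). *Thbs4*, like *Comp*, had no gene as near as these, with *Erdr1* (0.34), *Ccl4* (0.36) and *Tbx6* (0.41) first. Among the 5 genes themselves the nearest were *Thbs2* and *Thbs3* (0.41), and *Comp* was 1.46 or more from each of the others. With 11756 candidates and 4 samples, near matches can arise by chance, and no likeness was tested.

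Receptors of thrombospondins showed no common direction. Of 17 listed, 16 were tested, 0 passed in either direction and 9 had lower estimates, with a median of −0.35. *Cd36*, the fatty acid transporter that binds the type 1 repeats, stood at 883, 500 and 502 FPKM in LTBP4-CKO libraries and 532, 441 and 554 FPKM in WT libraries (log2 fold change 0.44, SE 0.54). *Cd47*, the receptor through which thrombospondin-1 blocks nitric oxide signalling, had an estimate of 0.26 (SE 0.38). The integrin gene *Itgb5* (−1.51, SE 0.61) and *Lrp1* (−0.93, SE 0.47), the endocytic receptor for thrombospondin bound to metalloproteinases, were lower in every knockout library, as were *Itgam* (−1.28, SE 0.58) and the syndecan gene *Sdc1* (−0.71, SE 0.44). Of the list, 5 genes were lower in this way and 0 higher, against 11.5% and 10.4% of all genes tested.

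Of the genes of latent TGF-beta activation and its readout, 14 of 16 were tested, 0 passed in either direction, and 12 had lower estimates, with a median of −0.21. *Ltbp2* (−2.38, SE 0.52) and *Ltbp3* (−1.33, SE 0.39), which encode relatives of LTBP4, were lower in every knockout library, as was the ligand gene *Tgfb3* (−0.70, SE 0.37). Of the list, 4 genes were lower in this way, against 11.5% of all genes tested. The readout genes *Smad7* (−0.003, SE 0.40) and *Skil* (−0.02, SE 0.45) overlapped. So did *Tgfb1* (0.48, SE 0.56) and *Tgfbr2* (0.35, SE 0.42), which had higher estimates. The TGF-beta target *Ctgf* stood at 171, 138 and 131 FPKM in LTBP4-CKO libraries and 709, 141 and 692 FPKM in WT libraries. Like *Thbs1*, it was high in WT libraries 1 and 3 and at a common level in the other 4. Of the ATF6 and ER chaperone genes, all 18 were tested, 0 passed in either direction and 7 had lower estimates, with a median of 0.04, close to that over all genes. *Atf6* (0.65, SE 0.53) and the chaperone genes *Hyou1* (0.41, SE 0.37), *Canx* (0.30, SE 0.40) and *Calr* (−0.35, SE 0.53) had the smallest p of this list. *Atf6* stood at 15.0, 5.43 and 6.76 FPKM in LTBP4-CKO libraries and 7.86, 4.03 and 8.47 FPKM in WT libraries.

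Matrix partners of COMP and the thrombospondins had lower estimates in 15 of 17 tested genes (18 listed), with a median of −0.90, and 9 of them were lower in every knockout library, as were 11.5% of all genes tested. They included the collagen genes *Col1a1* (−1.28, SE 0.44), *Col1a2* (−1.36, SE 0.51) and *Col3a1* (−1.29, SE 0.51) and the elastin gene *Eln* (−1.65, SE 0.60), and 0 passed in either direction. This list is not separate from the marker lists below. It shares *Col1a1*, *Col3a1*, *Fn1* and *Lox* with the activated fibroblast markers, *Col1a2* and *Dcn* with the fibroblast markers and *Matn2* with the tendon markers. Of the proteases known to cleave thrombospondins, 5 of 8 were tested, 0 passed in either direction, and the median was 0.19. *Adamts1*, which cleaves thrombospondin-1 and -2, stood at 22.2, 55.1 and 58.9 FPKM in LTBP4-CKO libraries and 14.2, 14.3 and 12.7 FPKM in WT libraries, above in every knockout library (1.30, SE 0.50). *Adamts7*, which cleaves COMP, overlapped (0.19, SE 0.50), as did *Mmp14* (0.45, SE 0.52) and *Htra1* (−0.64, SE 0.45).

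Markers of several cell types also differed in level between the libraries. Beside the counts below, 45.8% of all genes tested had lower estimates, and 11.5% were lower in every knockout library. Of 15 markers of tendon, cartilage and valve matrix, 10 were tested, all 10 had lower estimates (median −1.31), and 6 were lower in every knockout library. Their summed level was 57.5 to 176 FPKM in LTBP4-CKO libraries and 232 to 380 FPKM in WT libraries. Among them, the collagen-binding proteoglycan gene *Fmod* stood at 8.92, 4.18 and 3.94 FPKM in LTBP4-CKO libraries and 98.5, 39.4 and 97.3 FPKM in WT libraries (−3.16, SE 0.56). *Chad* (−1.85, SE 0.42), *Cilp2* (−1.70, SE 0.50) and the tendon gene *Tnmd* (−1.41, SE 0.51), all low in level, were also below in every knockout library. The cartilage genes *Matn3* and *Col9a1* and the *Kera* gene were listed at 0 in every library, and *Col2a1* and *Mkx* were below the filter. *Scx*, a tendon transcription factor gene, overlapped, at 18.7, 4.69 and 7.29 FPKM in LTBP4-CKO libraries and 14.1, 19.8 and 14.6 FPKM in WT libraries.

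All 10 fibroblast markers were tested and had lower estimates (median −1.03), with a summed level of 1161 to 3906 FPKM in LTBP4-CKO libraries and 2711 to 6305 FPKM in WT libraries. Their mean deviation from the average of the 4 samples was 0.22, −1.16 and −1.16 in LTBP4-CKO libraries 1 to 3 and 1.04, −0.08 and 1.02 in WT libraries 1 to 3. *Thbs2* deviated by 0.63, −0.91 and −1.14 in LTBP4-CKO libraries and by 0.46, −0.21 and 0.72 in WT libraries. Activated fibroblast markers had lower estimates in 9 of 10 (median −1.07), with summed levels of 639 to 787 FPKM in LTBP4-CKO and 1011 to 2058 FPKM in WT libraries. *Cthrc1*, a gene of activated fibroblasts, stood at 2.26, 3.60 and 2.86 FPKM in LTBP4-CKO libraries and 56.3, 6.70 and 50.1 FPKM in WT libraries. Adipocyte markers had lower estimates in 5 of 6 tested (7 listed, *Lep* at 0 in every library), with a median of −3.49 and summed levels of 51.7 to 95.9 FPKM in LTBP4-CKO and 288 to 592 FPKM in WT libraries. The adiponectin gene *Adipoq* stood at 0, 0.352 and 0.312 FPKM in LTBP4-CKO libraries and 14.9, 9.34 and 16.9 FPKM in WT libraries. All 11 macrophage and monocyte markers had lower estimates (median −0.87; 467 to 612 FPKM summed in LTBP4-CKO, 752 to 1578 FPKM in WT). Lower in every knockout library were 4 fibroblast, 4 activated fibroblast, 5 adipocyte and 10 macrophage and monocyte markers.

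The atrial markers had a median of −2.35 and lower estimates in 6 of 7, with summed levels of 280 to 13938 FPKM in LTBP4-CKO and 1588 to 37640 FPKM in WT libraries. Most of each sum was *Nppa*, at 13882 FPKM in LTBP4-CKO library 1, where *Sln*, *Myl4* and *Myl7* stood at 0.684, 8.11 and 2.82 FPKM. The mean deviation of the atrial markers was −0.98, −1.56 and −1.85 in LTBP4-CKO libraries 1 to 3 and 3.79, −1.09 and 3.72 in WT libraries 1 to 3, so WT library 2 lay within the range of the knockout libraries. *Thbs1* was likewise high in WT libraries 1 and 3 and low in WT library 2, with deviations of −0.48, −0.15 and −0.33 in LTBP4-CKO libraries and 1.52, −0.75 and 1.42 in WT libraries. Ventricular cardiomyocyte markers had higher estimates in all 8 (median 1.07), with *Myl2*, the ventricular light chain gene, at 30483, 10104 and 9968 FPKM in LTBP4-CKO and 1337, 10403 and 1337 FPKM in WT libraries. Platelet and megakaryocyte markers, from cells that store thrombospondin-1, had lower estimates in all 6 tested of 8 (median −0.59; 69.0 to 117 FPKM summed in LTBP4-CKO, 129 to 161 FPKM in WT). Their mean deviation was highest in WT library 2 (0.92), but *Pf4*, the marker with the highest level, was higher in WT library 3 (145 FPKM) than in WT library 2 (123 FPKM). Endothelial markers had higher estimates in 5 of 7 (median 0.35), and 4 of them (*Pecam1*, *Cdh5*, *Kdr* and *Tek*) were higher in every knockout library, as were 10.4% of all genes tested. Smooth muscle and pericyte markers had lower estimates in 4 of 8 (median −0.11) and skeletal muscle markers in 2 of 5 tested (median 0.40, *Myh4* at 0 in every library). Lower in every knockout library were 3 atrial and 2 platelet and megakaryocyte markers, and 0 ventricular markers were higher in every one. In these marker lists 0 genes passed in either direction (limma, Benjamini-Hochberg). The part of tissue and cell content in the thrombospondin differences was not tested.

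**Figure D5:**
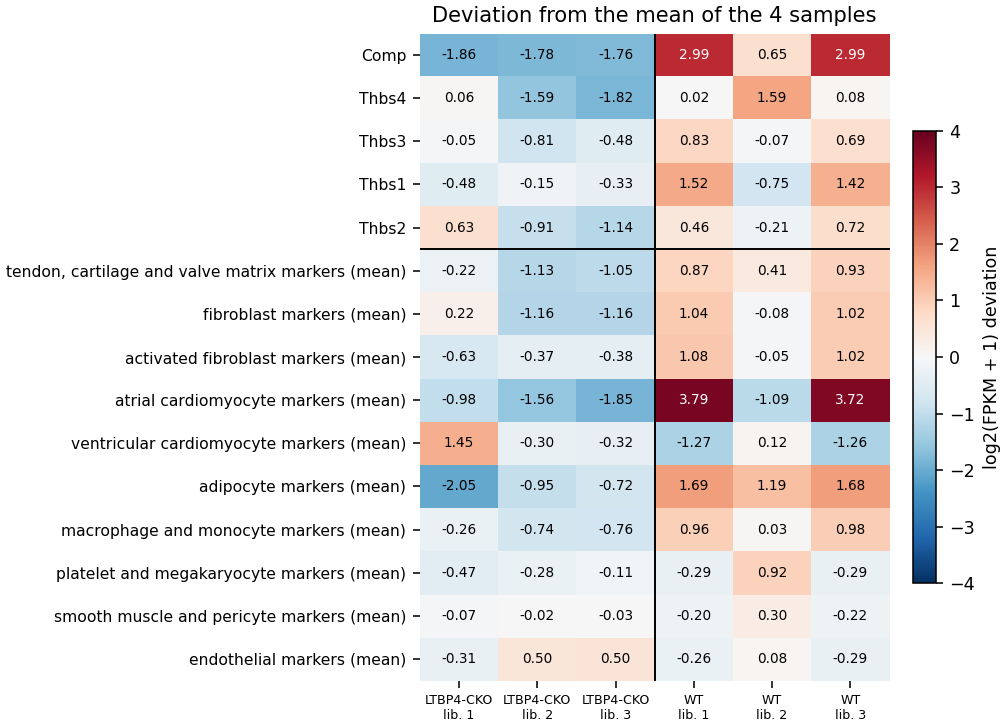
Deviation of log2(FPKM + 1) from the mean of the 4 samples, for each gene (upper block) and as the mean of each marker list (lower block), with LTBP4-CKO libraries on the left and WT libraries on the right; red is above and blue below the mean. *Comp* is below the mean in the 3 knockout libraries (−1.86 to −1.76) and above it in the WT libraries (0.65 to 2.99), and *Thbs4* alone of the 5 genes peaks in WT library 2 (1.59).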

How the data were processed

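Heart RNA was sequenced from TruSeq libraries, per the labels' protocols. Per the file headers, the authors deposited FPKM, 1 column per library. Cufflinks and the mouse build mm10 were used, per the submitters' processing notes. For the version, the aligner and the annotation, nothing is given in the sources used here. No label says that the kit keeps strand, so reads of a gene cannot be separated from those of an overlapping gene on the other strand. The table has 23995 genes and 1 line without values, and its starts were raised by 1 to count from 1.

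Libraries were mapped to columns by the short name in their description. The genes that reached 1 FPKM in 3 or more libraries (12485, all 5 thrombospondin genes among them) were tested on log2(FPKM + 1) with limma 3.58.1 in R 4.3.3 (trend and robust), for either direction, with Benjamini-Hochberg adjustment over all of them and a threshold of 0.05. A pseudocount of 1 understates the change of low genes. The fit used 4 samples (2 residual degrees of freedom), with each close pair of libraries averaged as FPKM; in it the run of record numbers could not be estimated. Depth was recovered from low values of genes with 1 annotated transcript over 1000 bases (GENCODE M21), where FPKM times effective length steps by whole fragments. Between 76.7% and 82.2% of such values fell within 0.15 of a whole number, so depths are approximate, and fragment numbers cover counting error only. Exact permutation tests used scipy 1.17.1. Likeness was the RMS difference over the 4 samples, with numbered gene models and clones left out.

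The members, gene lists and tests were chosen with earlier results of these data known, so counts over lists are descriptions and no list was tested. Some genes, such as *Ctgf* and *Calr*, belong to more than a single list. Genes named from a list are up to 4 by smallest p, and others were added by role after their values were seen. *Ccn2* and *Adgre1* were matched by the older symbols *Ctgf* and *Emr1*. The test script was checked on simulated data. Alternatives were another pseudocount, no filter, another scaling, the 6 libraries as separate samples, a replicate block, plain limma and leaving out libraries.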

Additional observations from a re-analysis of the deposited data

How the results depend on the processing

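Each estimate was recomputed under 15 alternatives. *Thbs3* and *Thbs4* kept their direction in all 15 and passed in 0, and *Comp* kept its direction in all 15 and passed in 1. Leaving out single libraries gave *Comp* estimates from −4.80 (without WT library 2, where it passed) to −3.59, and without WT libraries 1 and 3 it was −2.46. Over all these fits *Thbs4* ran from −2.52 to −0.76 and *Thbs3* from −1.10 to −0.27. *Thbs1* ran from −1.83 to 0.39, and the positive value came without WT libraries 1 and 3. *Thbs2* ran from −1.21 to 0.44, positive without LTBP4-CKO libraries 2 and 3 (0.44) and without WT libraries 1 and 3 (0.014). Where an arm was left with 1 sample, that sample was assumed to vary like the others. The count of genes called was 1 in the fit of 4 samples, 9 with no filter on low values (more genes tested), 2 with the 6 libraries as separate samples and no other term, and 1 to 12 when libraries were left out (12 without WT library 2, 5 without LTBP4-CKO libraries 2 and 3). The causes of these shifts were not tested. With the library number as a replicate block the count was 1, and no thrombospondin gene passed (limma, Benjamini-Hochberg adjusted p = 0.148 for *Comp*, estimate −4.01). Same-numbered libraries had deviations correlated by 0.12, 0.12 and −0.10, so not every number passed 0.1 and the numbers were not taken as pairs. Of the 6 libraries, 4 correlated best with their own number. Deviations were taken from genotype means and each genotype holds a close pair, so these correlations largely repeat each other. The count of 4 therefore cannot decide on pairing, which stays unresolved. Median-of-ratios scaling moved no estimate of the 5 genes across 0. With 2 samples per genotype, the 95% intervals of *Thbs1*, *Thbs2*, *Thbs3* and *Thbs4* include 0.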
